A study of Sus scrofa with 2 samples.

Results

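The genes described here are the solute carriers of pig endometrium, the membrane proteins that move amino acids, sugars, nucleosides, vitamins, metals and ions into and out of cells and organelles. They were chosen by name. A member is any gene whose symbol reads SLC, a family number, A and a member number, other than SLC18A2, and that had at least 50 unique molecular identifiers (UMIs, 1 per captured transcript) over both libraries together. Of 26881 features, 208 had such a symbol, 158 met the limit and 12 had no UMI at all. The members just inside the limit were SLC17A8 with 93 UMIs, SLC9A5 with 70 and SLC12A5 with 54. Just outside it were SLC7A10 with 49, SLC6A14 with 46 and SLC5A5 with 44. Despite their symbols, 4 members are not carriers (SLC9A3R1, SLC9A3R2, SLC7A6OS and SLC2A4RG, which encode scaffold or regulatory proteins), so that 154 carriers remained.

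Cells were profiled with 10x Genomics 3′ chemistry in 2 groups of 1 Yorkshire sow and 1 library each. The embryo loss sow (EL), aged 3 years, had aborted before and then failed to conceive at 3 inseminations in succession, and the labels give no gestation day for her. The sow with successful implantation (EIS), also aged 3 years, was inseminated and sampled on day 30 of pregnancy. The labels describe the sows as alike in genetic background and name no treatment, so animal, stage, pregnancy outcome and library are inseparable in every comparison of EL with EIS. About 200 mg of endometrium was digested with collagenase II, a further protease and DNase, filtered and freed of red cells, steps that can set which cells were recovered.

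The EL library held 10936 barcodes with 43302286 UMIs and the EIS library 8848 with 36069473, and 27 barcodes occurred in both. After filtering, 9865 EL and 8068 EIS cells remained. Most cells were assigned to a class where they met exactly 1 gate of marker genes, none of which is a solute carrier. Cells that met both the CCK gate and the gate of JPH4, JAKMIP1, PON3 or CLDN10 were counted with the latter. Gland secretory cells met none of these gates and were defined by their share of gland transcripts. These rules gave the following classes. In EL these were 3689 epithelial cells with JPH4, JAKMIP1, PON3 or CLDN10 (JPH4-CLDN10 cells), 847 with CYP26A1, 210 with CCK, 1418 ciliated cells, 246 T or NK cells and 92 macrophages. In EIS they were 889 gland secretory cells, 106 epithelial cells with IGFBP2, AQP8 or SULT2A1 (IGFBP2-AQP8 cells), 244 ciliated cells, 181 trophoblast-like cells, 76 cells with uroplakins, 212 stromal, 158 endothelial, 271 macrophage and 370 T or NK cells. Smaller groups, such as 32 EL stromal and 31 EL endothelial cells, are not described. In EIS 4726 cells (58.6%) met no class because 5 secretory gland genes (SLPI, ACP5, UABP-2, TIMP2 and SOD3) took over 10% of their UMIs, and in EL 3139 cells met no gate, with a median of 878 UMIs.

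The classes were read against their marker lists, from which the gates were drawn. A marker counted as detected with any UMI in the class sum, which free RNA can also supply. Detection is therefore no independent check of what the cells are. All 8 epithelial markers with a feature were detected in each epithelial class and in trophoblast-like cells. The trophoblast-like cells had all 16 trophoblast markers with a feature, and ciliated cells of both libraries all 10 ciliary ones. T or NK cells lacked CD3G and endothelial cells lacked VWF, each at 0 UMIs. No EL cell was assigned to the trophoblast-like class.

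Solute carriers are secondary transporters and facilitators: many are driven by the sodium gradient kept by the sodium pump, others by protons or by exchange of one solute for another. Before and beside the placenta, the pig conceptus is fed through secretions of the uterine glands and lumen (histotroph), and the pig placenta does not invade the uterus, so nutrients cross uterine epithelium and then trophoblast. Several amino acid carriers work as pairs in which a heavy chain, SLC3A2 or SLC3A1, brings a light chain of the SLC7 family to the membrane.

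Levels are given as CPM, a gene's UMIs scaled to a fixed total of UMIs in its class, with exact Poisson 95% intervals in parentheses. These intervals, and those of fold differences, cover counting error only, since cells of 1 library are no replicates and each group had 1 library. No test across sows was possible, and a difference is called past 2-fold where class and comparison together held at least 20 UMIs. In gland secretory cells the 5 gland genes took 63.3% of UMIs, which lowers the CPM of every other gene there.

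The members took 1.27% of UMIs in trophoblast-like cells, the largest share of any class of at least 50 cells, followed by 1.03% in CYP26A1 cells and 0.813% in CCK cells. In JPH4-CLDN10 cells they took 0.644%, in ciliated cells 0.582% in EL and 0.648% in EIS, and in gland secretory cells 0.266%. Within its own library, each class was then compared with all other gated cells. Trophoblast-like cells held 56 of 149 measured members past 2-fold above the rest, or 37.6%, against 19.3% of all 13919 features measured. CYP26A1 cells held 36 of 151 (23.8%) against 8.12% of all 14989 features, and IGFBP2-AQP8 cells 33 of 149 (22.1%) against 10.9%. In these 3 classes the carriers' share was well above the background. With every ratio taken relative to the median feature of its comparison, the counts were 55 (36.9%), 56 (37.1%) and 37 (24.8%), against 16.7%, 20.3% and 15.2% of all features.

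EL ciliated and gland secretory cells also held a larger share of members than of all features, while the other classes stood near the background or below it. The count was 35 of 151 (23.2%) against 17.5% in EL ciliated cells, 17 (11.3%) against 10.9% in CCK cells and 26 (17.2%) against 22.7% in JPH4-CLDN10 cells. For EIS ciliated cells it was 34 of 149 (22.8%) against 35.2%, for endothelial cells 34 (22.8%) against 30.5%, for macrophages 34 (22.8%) against 23.3% and for stromal cells 22 (14.8%) against 18%. Among T or NK cells it was 43 (28.5%) against 32% in EL and 30 (20.1%) against 28.7% in EIS. Gland secretory cells held 7 members above the rest, 4.70% against 2.3%, and relative to the median feature 38 (25.5%) against 18.6%. On that relative scale EL ciliated cells held 35 (23.2%) against 19.4%, CCK cells 20 (13.2%) against 12.2% and JPH4-CLDN10 cells 21 (13.9%) against 17.6%. EIS ciliated cells held 23 (15.4%) against 21.1%, endothelial cells 16 (10.7%) against 14.4%, macrophages 24 (16.1%) against 18% and stromal cells 22 (14.8%) against 17.5%. T or NK cells held 37 (24.5%) against 29.2% in EL and 23 (15.4%) against 20.8% in EIS.

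**Figure D1:**
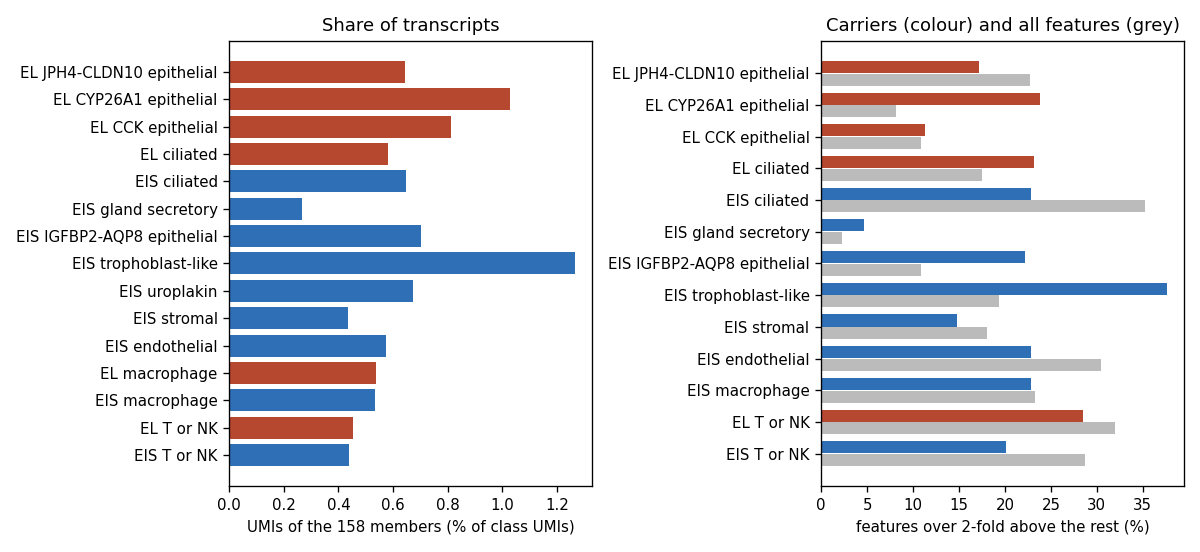
Left, the share of UMIs held by the 158 members (% of class UMIs) in 15 classes of EL (red) and EIS (blue), with trophoblast-like cells highest at 1.27% and gland secretory cells lowest at 0.266%. Right, the share of members (coloured) and of all measured features (grey) past 2-fold above the other gated cells of the same library (%), for the 13 classes of at least 100 cells, with no error bars because there is 1 library per group.

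Of 24 measured amino acid carriers, 12 were past 2-fold above the rest in trophoblast-like cells and 7 below it, where 19.3% of all features were above. Their median log2 ratio was 1.56, against 0.10 for all features. Of 23 measured in CYP26A1 cells, 8 were above and 10 below, where 8.12% of all features were above. Here the median was -0.83, close to the -0.89 of all features. The share of all features below is not given, so the counts below are not read as a trait of these carriers. SLC7A4, a relative of the cationic amino acid transporters whose substrate is not established, was at 2761 CPM (2669.5 to 2854) in trophoblast-like cells and 352 (320.2 to 387) in IGFBP2-AQP8 cells. In the 3 non-ciliated EL classes it lay between 2.59 and 27 CPM. In EIS T or NK cells it was at 25.7, and the part of free RNA in that level was not tested. The trophoblast-like level was 54.1-fold (50.3 to 58.3) that of all other gated EIS cells. The 4726 EIS cells with gland transcripts above the limit held a further 7385 UMIs of SLC7A4, at 602 CPM (589 to 616), more UMIs than all gated EIS classes together, so that most of its EIS transcripts lay outside the classes.

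Cationic and large neutral amino acid carriers accompanied it in trophoblast-like cells. SLC7A3, an arginine and lysine transporter, reached 161 CPM (139 to 184), 185-fold (109.6 to 337) the rest of EIS, and no other EIS class exceeded 5.70 CPM. The light chain SLC7A8, which carries large neutral amino acids, was at 341 CPM there against 79.6 in EIS macrophages, its second highest EIS class. SLC7A7, a light chain that exports cationic amino acids, was at 177 (155 to 202) CPM in trophoblast-like cells and 188 (162 to 217) in uroplakin cells, 2 levels whose intervals overlap. SLC43A2, a facilitator of branched-chain amino acids, was at 214 CPM and the heavy chain SLC3A2 at 219, against at most 61.6 and 89.1 in the other EIS classes, both in macrophages.

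A different set marked the CYP26A1 cells of EL. SLC6A15, a sodium-coupled carrier of branched-chain amino acids and proline, was at 279.6 CPM (269 to 290.0), 94.1-fold (74.2 to 121) the other gated EL cells. Its EIS levels ran from 0 in gland secretory, trophoblast-like, stromal and T or NK cells to 16.1 CPM in uroplakin cells. SLC3A1, a heavy chain that takes part in cystine uptake when paired with a light chain, was at 146 CPM (139 to 153) in CYP26A1 cells. It was at 68.2 (54.6 to 84.2) in IGFBP2-AQP8 cells and 80.3 (65.4 to 97.5) in trophoblast-like cells, and at most 8.04 CPM in every other class of at least 50 cells. SLC7A9, of the light chain family, had 0 UMIs in the whole EL library and 9 in EIS. The level of SLC3A1 alone does not show cystine uptake. The glycine transporter SLC6A9 was 25.9-fold (18 to 38.5) the rest of EL, at 35.7 CPM.

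The sodium-coupled glutamine carriers had other patterns. SLC38A1 was at 669 CPM (655 to 682) in JPH4-CLDN10 cells and 634 (589 to 682) in CCK cells, with overlapping intervals, and at 95 in CYP26A1 cells. Its highest EIS level was 123 CPM, in IGFBP2-AQP8 cells. SLC38A2 had no class below 76.3 CPM among those of at least 50 cells and was highest in endothelial cells, at 748 CPM (695 to 805). SLC38A5 was a stromal gene within EIS, at 44.5 CPM (36.4 to 53.8), and SLC1A5, an exchanger of neutral amino acids, was at 249 (222 to 278) CPM in IGFBP2-AQP8 cells against 27.9 in gland secretory cells. The glutamate carrier SLC1A1 was at 29.9 CPM in EL and 63.6 in EIS ciliated cells, at 49.97 in IGFBP2-AQP8 cells and at 0 in both T or NK sums.

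**Figure D2:**
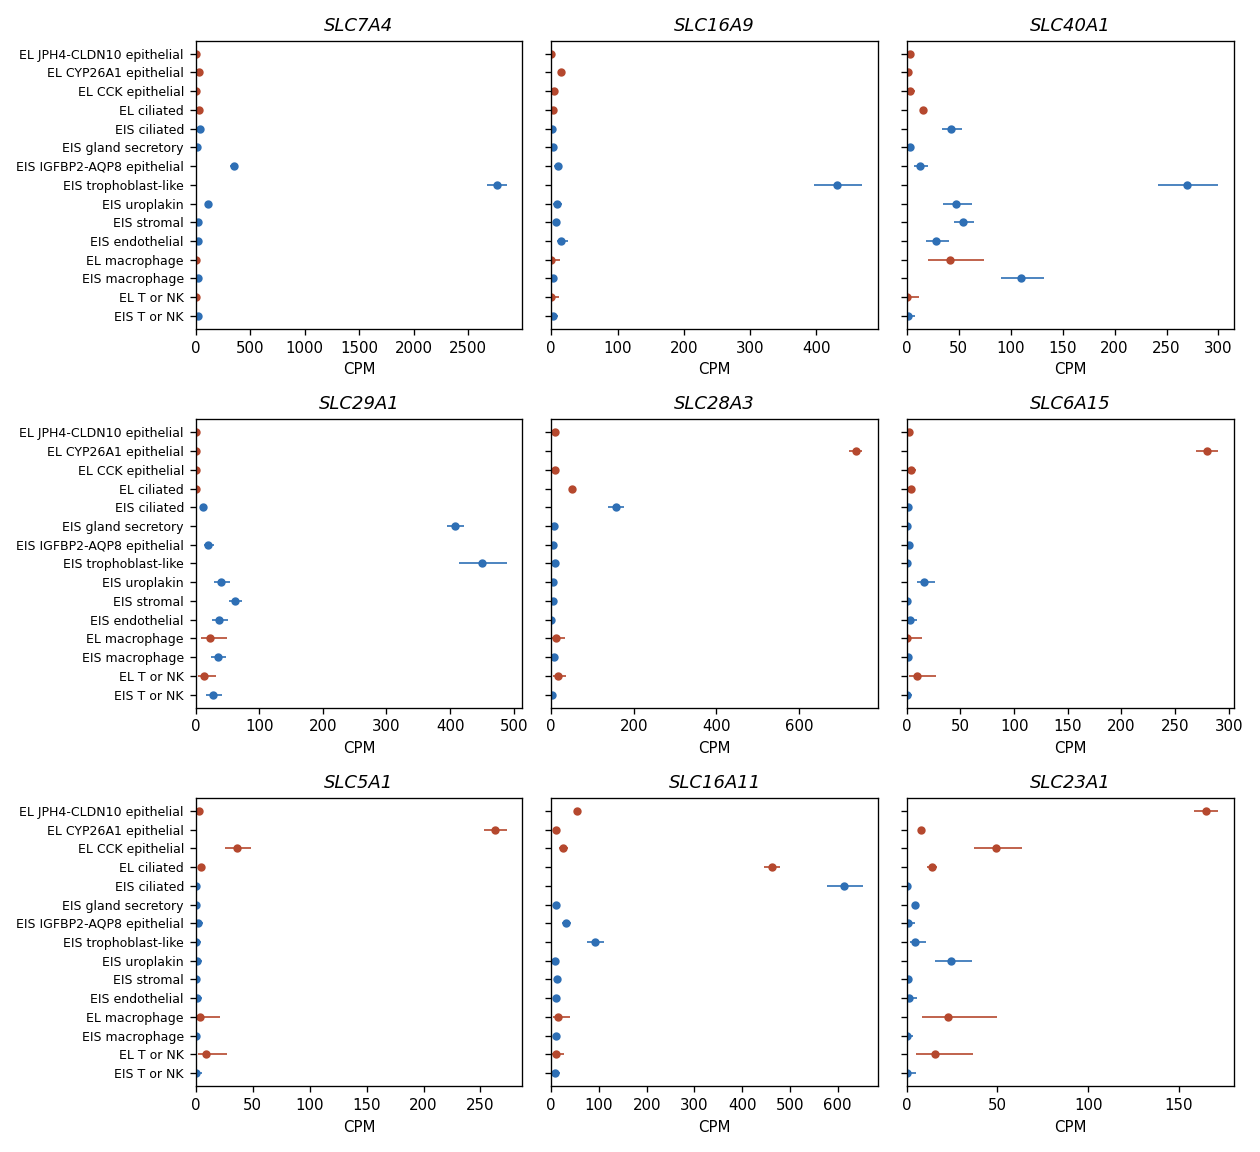
CPM of 9 members in 15 gated classes of EL (red) and EIS (blue), with bars for exact Poisson 95% intervals and a separate linear axis for each gene. SLC7A4, SLC16A9 and SLC40A1 peak in trophoblast-like cells, SLC29A1 in trophoblast-like and gland secretory cells, SLC28A3, SLC6A15 and SLC5A1 in CYP26A1 cells, SLC16A11 in ciliated cells of both libraries and SLC23A1 in JPH4-CLDN10 cells.

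Sugar carriers separated the epithelial classes. SLC5A1, the sodium-coupled glucose transporter, was at 263 CPM (253 to 273) in CYP26A1 cells and 36.2 (26.1 to 49) in CCK cells, while no EIS class exceeded 2.38 CPM. SLC2A3, a high-affinity glucose facilitator, was at 121 CPM in CYP26A1 cells and only 4.04 in JPH4-CLDN10 cells. In EIS it was at 163 CPM in IGFBP2-AQP8 cells, 101 in trophoblast-like cells and 1.58 in gland secretory cells, and immune cells of both libraries lay between 96.7 and 168. SLC5A1 and SLC2A3 were thus low in CPM in the gland secretory class, where the gland genes lower the CPM of every other gene. EIS cells with gland transcripts above the limit but outside that class are not covered by this reading. No feature bore the symbol SLC2A1, so this glucose facilitator could not be read, and glucose uptake as a whole was not tested.

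IGFBP2-AQP8 cells held 6 of 10 sugar carriers past 2-fold above the rest of EIS (10.9% of all features were), with a median log2 ratio of 1.57 against -0.23 for all features. The facilitator SLC2A12 was at 219 CPM (194 to 246), 19-fold (15.8 to 22.9) the rest, and SLC37A2, a sugar-phosphate exchanger, was 18.6-fold (14.6 to 23.7) the rest at 128 CPM. SLC45A3, of a proton-coupled sugar family, was 24.2-fold (13.8 to 43.4) the rest on 37 UMIs. SLC45A4 was at 46.8 CPM there and at 38.2 in gland secretory cells, against 3.70 to 7.77 in the non-ciliated EL classes. SLC50A1, a sugar facilitator, was found in every class of at least 50 cells, from 31.3 to 224 CPM.

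The main nucleoside carriers differed between the libraries. SLC28A3, which concentrates nucleosides with sodium, was at 737 CPM (720.1 to 753) in CYP26A1 cells, 36-fold (32.8 to 39.6) the rest of EL, and at 8.63 in CCK and 8.16 in JPH4-CLDN10 cells. Ciliated cells also had it, at 49.9 (44.7 to 55.5) CPM in EL and 156 (138 to 176) in EIS. SLC29A1, which lets nucleosides equilibrate across the membrane, was at 408 (395 to 422) CPM in gland secretory cells and 451 (414 to 489) in trophoblast-like cells, with overlapping intervals. In the EL epithelial classes, ciliated cells included, SLC29A1 lay between 0.683 and 1.04 CPM, below the 12.5 (3.40 to 31.9) of EL T or NK cells. EIS T or NK cells had 27.1 CPM of SLC29A1, and the part of free RNA in that level was not tested. SLC29A4, a carrier of monoamines, was a ciliated gene in both libraries, at 42.1 and 26.8 CPM.

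After each cell was thinned to 1000 UMIs, SLC28A3 was found in 44.9% of 817 cells (41.5 to 48.4; 87.4% before thinning) of the CYP26A1 class and in 0.837% of 3466 cells (0.561 to 1.20; 2.63% before thinning) of the JPH4-CLDN10 class. SLC29A1 was found in 30.1% of 875 cells (27 to 33.2; 78.1% before thinning) of the gland secretory class, and EIS T or NK cells, with a median of 1756 UMIs against 6504, gave 2.80% of 357 cells (1.35 to 5.09; 5.14% before thinning). SLC7A4 was found in 74.5% of 165 cells (67.2 to 81; 84% before thinning) of the trophoblast-like class, against 3.36% of 357 cells (1.75 to 5.80; 4.86% before thinning) of EIS T or NK cells. The parentheses give exact Clopper-Pearson 95% intervals. Cells under 1000 UMIs were left out, 30 of 847 in the CYP26A1 class, 223 of 3689 in the JPH4-CLDN10 class, 14 of 889 gland secretory, 16 of 181 trophoblast-like and 13 of 370 EIS T or NK cells. The class with the highest CPM also had the highest share of cells, in EL for SLC28A3 and in EIS for SLC29A1 and SLC7A4.

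Among monocarboxylate and fatty acid carriers, SLC16A11, whose product has been tied to pyruvate transport, was a ciliated gene in both libraries. It was at 463 (447 to 479) CPM in EL and 614 (577 to 652) in EIS ciliated cells, 13.6-fold (12.6 to 14.6) and 35-fold (30.8 to 40) the other gated cells of each library. Trophoblast-like cells had SLC16A9, linked to carnitine and creatine transport, at 431 CPM (396 to 469), 95.7-fold (75.3 to 123) the rest of EIS. SLC16A1, the lactate and pyruvate carrier, was at 168 CPM in IGFBP2-AQP8 cells and 164 in trophoblast-like cells, and between 0.488 and 2.92 in the ciliated, gland secretory and EL epithelial classes. Uroplakin cells lay between, at 56.3 CPM. SLC16A6 was at 89.7 CPM in CCK cells and 119.8 in IGFBP2-AQP8 cells, and was the leading member by fold in CCK cells, at 5.35-fold (4.30 to 6.61) the rest of EL. SLC16A12, a creatine carrier, was at 54.3 (40.8 to 70.8) CPM in uroplakin cells.

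SLC27A2, which takes up and activates long-chain fatty acids, was at 572 CPM (531 to 615) in IGFBP2-AQP8 cells and 2.44 in gland secretory cells of the same library. It was 83.8-fold (68.9 to 103) the rest of EIS, the leading member of that class by fold. SLC27A4, a related acyl-CoA synthetase, was instead at 145 CPM (124 to 167) in trophoblast-like cells. These 2 of the 3 fatty acid carriers thus sat in different EIS classes, and SLC27A1 is not described. Within EL, SLC27A2 was among the 5 leading members of ciliated cells, at a log2 ratio of 2.90 over the rest.

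Of the 7 vitamin carriers, those described first stood out in different classes. SLC23A1, which takes up ascorbate with sodium, was at 165 CPM (158 to 172) in JPH4-CLDN10 cells and 49.2 in CCK cells, and the EL cells that met no gate had 130.0. In EIS it was highest in uroplakin cells, at 24.1 CPM, and was at 4.75 in gland secretory cells and 0 in ciliated cells, macrophages and T or NK cells. SLC5A6, the carrier of biotin and pantothenate, was at 451 CPM (414 to 489) in IGFBP2-AQP8 cells and 153 (145 to 162) in gland secretory cells, against 6.04 to 15.8 in the non-ciliated EL classes. SLC19A2, the thiamine carrier, was at 105 CPM in CYP26A1 cells and at most 25.3 in the other classes. The riboflavin carrier SLC52A3 was 55.7-fold (33.4 to 97.5) the rest of EIS in trophoblast-like cells, at 61.2 CPM. SLC46A3, counted with the vitamin carriers, was also highest within EIS in trophoblast-like cells, at 58 CPM against 51.2 in macrophages.

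Metal carriers also differed between the classes. SLC30A2, which loads zinc into secretory vesicles, was at 492 (478 to 506) CPM in CYP26A1 and 500.4 (461 to 543) in CCK cells, intervals that overlap, and at 93.4 in JPH4-CLDN10 cells. In EIS it was at 125 CPM in gland secretory cells, 7.16-fold (6.11 to 8.44) the other gated cells, the leading ratio there among members of at least 20 CPM and 30 UMIs. SLC31A2, a copper transporter of internal membranes, was at 343 CPM in CCK and 243 in CYP26A1 cells, against 4.26 in gland secretory cells. The iron exporter SLC40A1 was at 269 CPM (241 to 299.6) in trophoblast-like cells and 109.9 (90.8 to 132) in EIS macrophages, while gland secretory cells had 3.04. SLC11A1, the phagosomal iron carrier, was a macrophage gene, at 26.6 CPM in EL and 86.2 in EIS. SLC39A8, a zinc importer, was at 46.5 CPM in endothelial cells and 0 in the 3 non-ciliated EL epithelial classes.

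Ion, peptide and organic ion carriers differed in how widely they were found. SLC10A3, of the bile acid carrier family, lay between 65.4 CPM in EIS macrophages and 259 in EL ciliated cells over all classes of at least 50 cells. SLC12A7, a potassium-chloride cotransporter, was at 117 CPM in EL and 107 in EIS ciliated cells, and at 87.8 in endothelial cells. The sodium-calcium exchanger SLC8A1 was at 126 CPM in stromal cells, 159 in EL and 133 in EIS macrophages. The anion exchanger SLC26A6 reached 124 CPM (105 to 145) in trophoblast-like cells and at most 15.2 elsewhere, and the sulfate carrier SLC13A4 was at 38.9 CPM there. The citrate carrier SLC13A5 was at 154 CPM in CCK and 117 in CYP26A1 cells, and at 0 in IGFBP2-AQP8 and trophoblast-like cells. The peptide carrier SLC15A1 was at 47.6 CPM in IGFBP2-AQP8 and 50.9 in trophoblast-like cells, and at most 5.02 elsewhere, and SLC15A3 of the endolysosome was at 45.5 and 73.9 in the macrophages of EL and EIS. SLC6A2, the noradrenaline carrier, was 15.4-fold (10.3 to 24.2) the rest of EL in JPH4-CLDN10 cells, at 20.4 CPM.

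Among acid-base and anion carriers, the bicarbonate cotransporter SLC4A4 was at 28.5 CPM in CCK cells and 8.43 in JPH4-CLDN10 cells, and at 28.1 and 47.8 in the ciliated cells of EL and EIS. SLC9A3R1, the scaffold that ties carriers to the apical cytoskeleton and no carrier itself, was at 386 CPM (353 to 422) in trophoblast-like cells and 265 (228 to 306) in EIS T or NK cells. The choline carrier SLC44A4 was an epithelial gene, from 11.2 CPM in CYP26A1 cells to 215 in EL ciliated cells, and at 1.03 in endothelial cells, where its relative SLC44A2 was at 136. The Golgi carrier of UDP-N-acetylglucosamine, SLC35A3, was at 164 CPM in trophoblast-like cells and 108 in CCK cells, its highest classes in EIS and EL, and at 13.4 in gland secretory cells.

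The 29 mitochondrial carriers, the largest family, were found widely. SLC25A3, the phosphate carrier, was at 156 CPM in gland secretory cells and between 474 and 1074 in the other classes of at least 50 cells. CYP26A1 cells held 6 of 29 past 2-fold above the rest of EL, where 8.12% of all features were, and 8 of 29 past 2-fold below it. The share of all features below is not given, and the median log2 ratio was -0.14 for these carriers against -0.89 for all features. The ADP/ATP carrier SLC25A6 was at 2565 CPM (2534 to 2596) there against 574 in JPH4-CLDN10 cells and 1167 in trophoblast-like cells, and its paralogue SLC25A4 at 211 against 47.8. The third paralogue, SLC25A5, was instead at 914 CPM in CCK cells and 370.3 in CYP26A1 cells. Reads of these close paralogues could have been divided between them in counting. SLC25A29, which carries basic amino acids, was at 774 CPM (757 to 791) in CYP26A1 cells, and at 202 and 343 in the ciliated cells of EL and EIS.

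**Figure D3:**
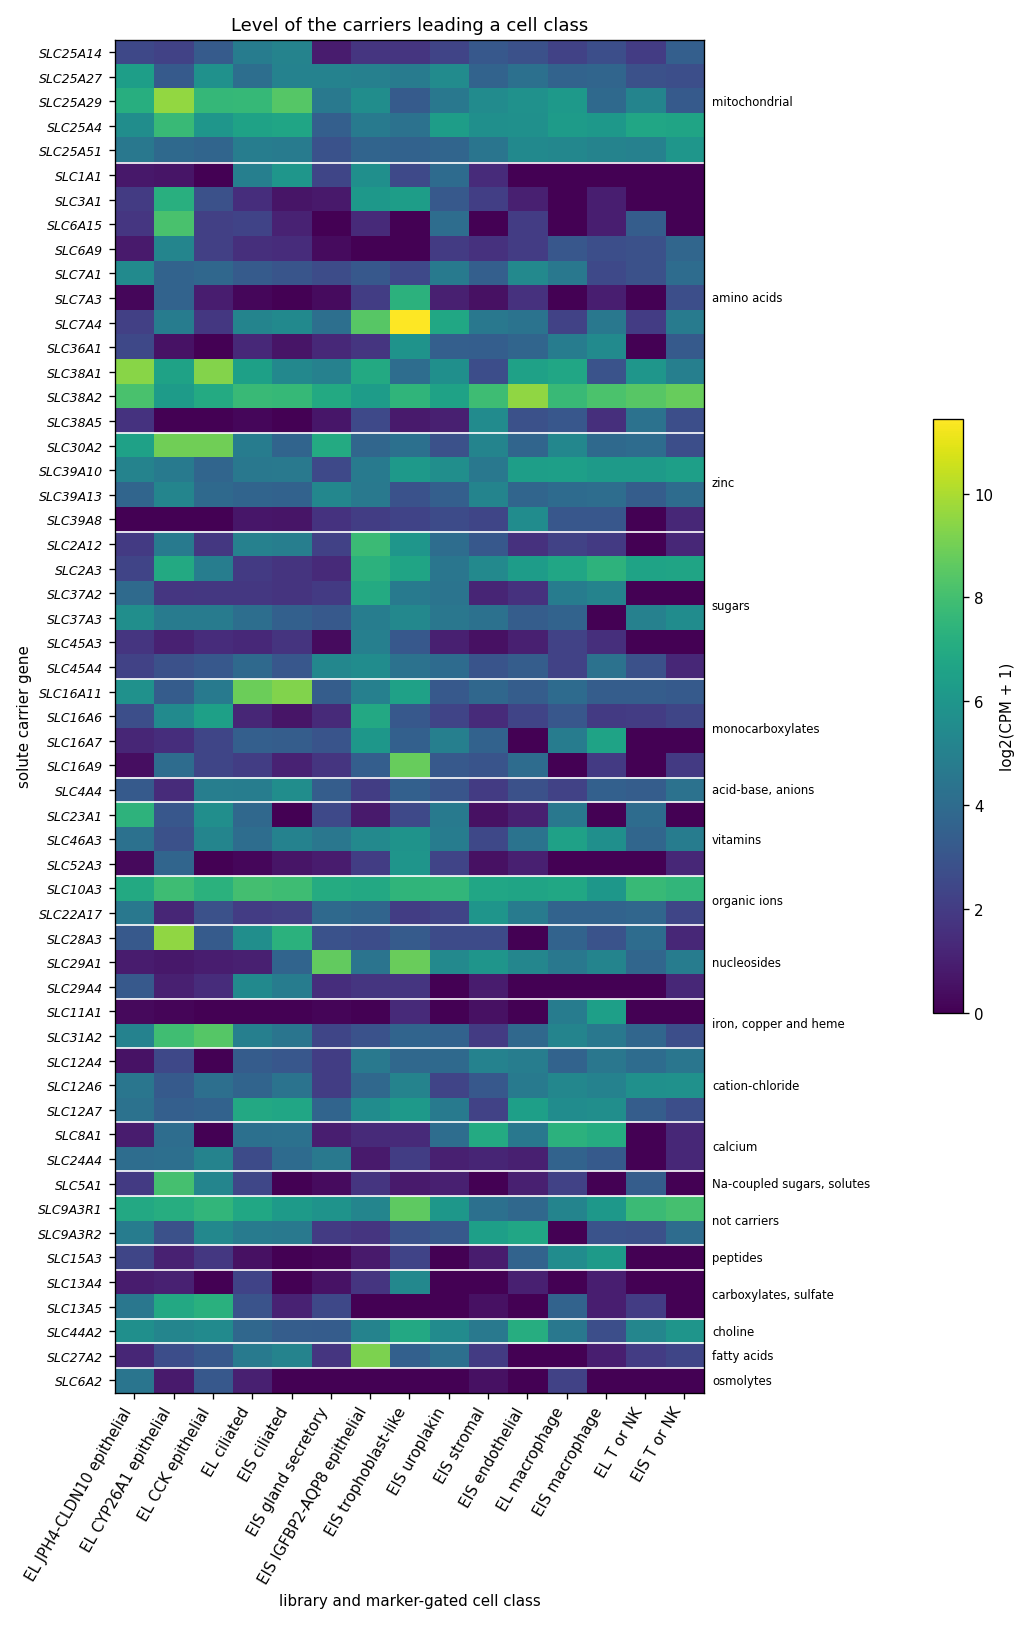
Level as log2(CPM + 1), from dark (0) to yellow, of the 55 members with 1 of the 5 leading class over rest ratios in a class (among members of at least 20 CPM and 30 UMIs there), in 15 gated classes (columns) and ordered by role (rows, white lines between roles). SLC7A4 in trophoblast-like cells is the brightest entry, and SLC28A3 and SLC25A29 are bright in CYP26A1 cells, while SLC10A3 and SLC38A2 are bright in every column.

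The JPH4-CLDN10 class was also divided into 837 cells leaning to PON3 and CLDN10 and 1955 leaning to JPH4 and JAKMIP1. Between them, 3 of 122 measured members were past 2-fold higher in the first and 5 in the second, against 1.83% and 7.07% of all 12339 features. Few features of any kind divided these subsets past 2-fold, so the counts are not read as a trait of the carriers.

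For 10 members, the features with the most similar pattern were sought over the 15 gated sums of at least 50 cells, by Pearson correlation of log2(CPM + 1) among 7458 features. The sums share libraries, and classes of 1 library share free RNA and depth, so these values are descriptions. SLC28A3 was most like GLB1L2 (r = 0.92), SLC5A1 most like HDC (0.93), SLC7A4 most like SGPP2 (0.96), SLC29A1 most like ACP5 (0.89), itself a gate gene, SLC23A1 most like RGN (0.89) and SLC40A1 most like EPB41L3 (0.89). SLC6A15 was most like TIMM10 (0.85) and SLC20A1, a phosphate carrier, most like LITAF (0.81). The nearest feature was another carrier for SLC30A2 (SLC13A5, 0.91) and for SLC16A9 (SLC7A3, 0.89).

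EL and EIS could be compared within 3 classes of at least 100 cells in both libraries: ciliated cells, non-ciliated epithelial cells and T or NK cells. In ciliated cells the 5 gland genes held 0.154% of EL and 1.21% of EIS UMIs. Of 127 measured members, 108 differed by less than 2-fold. Another 11 were past 2-fold higher in EL (8.66%, against 5.87% of all 11952 features) and 8 in EIS (6.30%, against 4.17%). Both shares were a little above those of all features, on few members. The median log2 ratio of EL over EIS was -0.07 for members and 0.03 for all features. With every cell thinned to 1000 UMIs the counts were 6 and 4, and with at least 50 UMIs required they were 4 and 4. The number of measured members can change with both settings, and no share of all features is given. The fall is therefore not read as a trait of the carriers.

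SLC28A3 was the ciliated member whose excess in EIS was largest, counting those with 20 CPM and 30 UMIs or more on the higher side, at 49.9 CPM in EL and 156 in EIS, 3.12-fold (2.65 to 3.68) higher. SLC40A1 was 2.71-fold (1.99 to 3.69) higher in EIS and SLC1A1 2.13-fold (1.67 to 2.70). On the EL side SLC30A2 was 2.28-fold (1.44 to 3.83) higher, SLC38A1 2.25-fold (1.75 to 2.93) and SLC16A13, a monocarboxylate family member, 2.18-fold (1.47 to 3.34). SLC16A11 was at 463 CPM in EL and 614 in EIS, and the pairs for SLC12A7 and the choline carrier SLC44A4 were 117 with 107 and 215 with 214.

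Of the 11 ciliated members higher in EL, 8 had a lower level in ciliated cells than in the other gated EL cells (among them SLC30A2, SLC38A1, SLC23A1, SLC13A5, SLC5A1 and SLC6A15). Of the 8 higher in EIS, 2 were lower in ciliated cells than in the other gated EIS cells (SLC29A1 and SLC23A2). The same was not counted over all features, so these counts are not read as a trait of the carriers. SLC23A1, for example, had 93 UMIs in EL and 0 in EIS ciliated cells, at 13.8 CPM against 95.6 in the other gated EL cells. The part of free RNA or of doublets in these differences was not tested beyond the alternatives of the closing section. Of the 35 members past 2-fold above the rest in EL ciliated cells, 17 (48.6%) were also among the 34 of EIS ciliated cells (50% of those). Over all features the same overlap was 1788 features, 68.2% of the 2622 of EL and 36.5% of the 4903 of EIS.

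**Figure D4:**
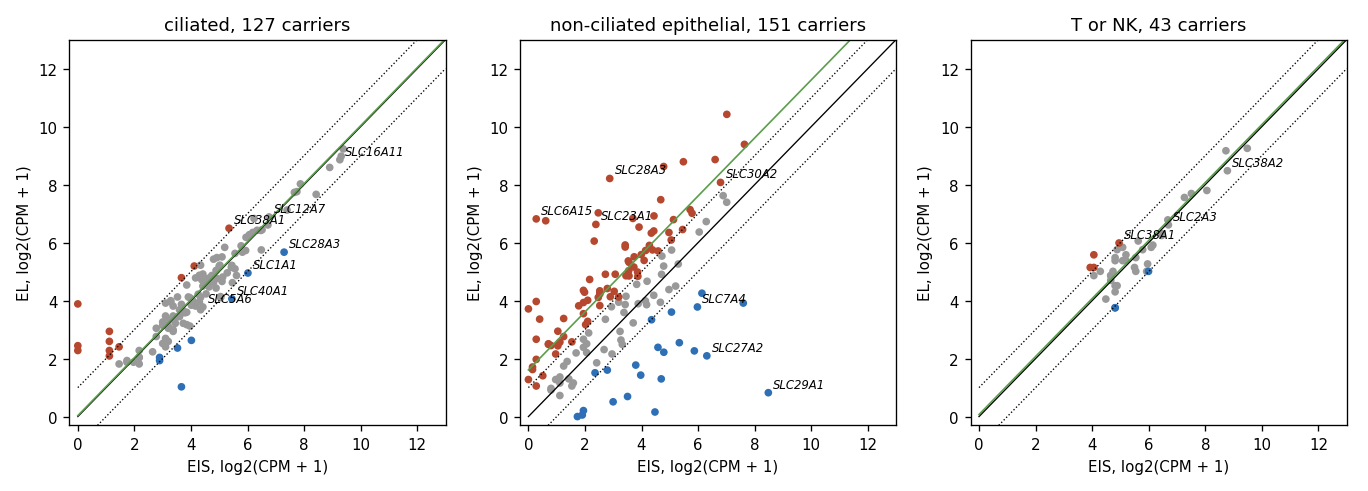
Level of each measured member as log2(CPM + 1) in EIS (x) and EL (y) in ciliated, non-ciliated epithelial and T or NK cells; red and blue points are past 2-fold higher in EL or EIS, dotted lines mark 2-fold and the green line the median ratio of all features. In ciliated and T or NK cells the points follow the diagonal, while in non-ciliated epithelium both the points and the green line lie off it.

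The non-ciliated epithelium was not made of the same subtypes in the 2 libraries: in EL it pooled the JPH4-CLDN10, CYP26A1 and CCK cells (4746 cells), in EIS the gland secretory and IGFBP2-AQP8 cells (995 cells). The 5 gland genes held 0.013% of EL and 55.1% of EIS UMIs, and the median log2 ratio of all 14487 features was 1.61. On the CPM scale 81 of 151 members were past 2-fold higher in EL (53.6%, against 71.8% of all features) and 22 in EIS (14.6%, against 6.5%). Relative to the median feature, 27 were higher in EL (17.9%, against 18.8% of all features) and 57 in EIS (37.7%, against 19.7%), and the members' median lay 0.43 (log2) below that of all features. The split therefore turned with the scaling, and folds below are on the CPM scale with the log2 value relative to the median feature beside them.

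Most members furthest on the EL side had their highest EL level in CYP26A1 cells. SLC6A15 was at 112 CPM in EL and 0.211 in EIS (2905 and 2 UMIs), with a relative log2 value of 7.44, and SLC5A1 at 107 CPM in EL and 0.528 in EIS (2778 and 5 UMIs), with 6.05. SLC28A3 was 46.6-fold (36.2 to 61.2) higher in EL, SLC31A2 28.5-fold (21.1 to 39.4), SLC23A1 23.2-fold (17 to 32.5) and SLC13A5 16.3-fold (11.8 to 23.1), with relative log2 values of 3.93, 3.22, 2.92 and 2.42. All 6 stayed past 2-fold relative to the median feature, as did SLC25A29, SLC25A6, SLC38A1 and SLC25A4, at 1.63 to 2.28.

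On the EIS side SLC29A1 was at 0.769 CPM in EL and 357 in EIS, 463-fold (299.6 to 759.7) higher in EIS (-10.47 relative). SLC17A9, a vesicular nucleotide carrier, had 3 UMIs in EL and 201 in EIS, a ratio of 184-fold (62 to 899). SLC27A2 was 23.9-fold (19.1 to 30.3) higher, SLC16A1 17-fold (12.1 to 24.7), SLC1A5 15.1-fold (12.1 to 18.8) and SLC5A6 13.7-fold (12.2 to 15.3). Their relative log2 values were -9.13 for SLC17A9, -6.19 for SLC27A2, -5.70 for SLC16A1, -5.52 for SLC1A5 and -5.38 for SLC5A6. Of these, SLC29A1 and SLC17A9 were highest in gland secretory cells among both pooled EIS classes, while SLC27A2, SLC16A1, SLC1A5 and SLC5A6 were higher in the 106 IGFBP2-AQP8 cells. SLC45A4, SLC7A6 (an exchanger of cationic and neutral amino acids), SLC43A2 and SLC7A4 lay between 4.86-fold (4.24 to 5.58) and 8.12-fold (6.62 to 10.02) higher, with relative log2 values of -4.63, -4.47, -4.05 and -3.89.

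By role, the median log2 ratio in non-ciliated epithelium was 0.74 for 23 amino acid carriers, 0.38 for 9 monocarboxylate carriers, 0.21 for 7 acid-base and anion carriers, 1.29 for 11 zinc carriers, 1.30 for 10 sugar carriers and 1.40 for both the 29 mitochondrial and the 7 vitamin carriers, beside 1.61 for all features. Relative to the median feature, where 18.8% of all features were past 2-fold higher in EL and 19.7% in EIS, 5 of 23 amino acid carriers were higher in EL and 10 in EIS. The counts were 0 and 6 of 9 monocarboxylate carriers, 0 and 4 of 11 zinc carriers, and 6 and 4 of 29 mitochondrial carriers. Fewer cells of a subtype and less RNA per cell cannot be told apart in these pooled sums.

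T or NK cells, 246 in EL and 370 in EIS, had 43 measured members. Of them 4 were past 2-fold higher in EL (9.30%, against 5.63% of all 6021 features) and 3 in EIS (6.98%, against 4.29%). Among the 4 were SLC38A1, SLC25A13 and SLC16A1, on 11 to 20 UMIs each in EL, and the 3 were SLC46A3, SLC29A1 and SLC25A51, named here because they were few. The counting interval of each of the 3 EIS ratios held 1. After thinning 0 members were past 2-fold higher in EL and 1 in EIS. These counts have no share of all features beside them and are not read as a trait of the carriers. SLC38A2, at 356 (293 to 427) CPM in EL and 439 (391 to 491) in EIS, and SLC2A3, at 96.7 (65.7 to 137) and 103 (80.3 to 129), had overlapping intervals.

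Genes that work beside the carriers were read from lists of pumps, channels and other transporters. In non-ciliated epithelium, where 71.8% of all features were past 2-fold higher in EL and 6.5% in EIS with a median log2 ratio of 1.61, the pumps, channels and partners held no larger share in EL than that background. Of 7 measured pump genes 4 were higher in EL and 1 in EIS, with a median of 1.58, and of 13 channels 9 were higher in EL and 2 in EIS, with a median of 1.32. Of 19 measured partners and regulators 9 were higher in EL and 4 in EIS, with a median of 0.76. Of 5 organic anion transporters of the SLCO family 4 were higher in EL and 1 in EIS, with a median of 1.83, and of 3 ABC transporters 2 were higher in EL, with a median of 1.08. The sodium pump subunit ATP1B1 was at 498 CPM in EL and 33.5 in EIS (2.29 relative to the median feature) and the pump regulator FXYD4 at 500.1 CPM in EL and 28.9 in EIS (2.50), while FXYD2 was at 4.15 CPM in EL and 23 in EIS (-4.08). PDZK1, a scaffold of apical carriers, was at 119 CPM in EL and 1.69 in EIS (4.53), and the anion channel CFTR at 108 CPM in EL and 2.85 in EIS (3.64). In ciliated cells 0 of 7 pump genes were past 2-fold higher in EL (5.87% of all features were) and 1, FXYD2, in EIS (4.17% of all features), at 63.5 CPM in EL and 454 in EIS.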

How the data were processed

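Per the labels, 1 library of each sow was made with 10x Genomics 3′ chemistry. The authors deposited raw UMI count matrices with feature names and barcodes as text; the submitters' processing notes name Cell Ranger 2.1.1, while the file headers name Cell Ranger 6.1.0. The genome build is not given in the sources used here, nor is the annotation. No symbol came with 16128 features, which held 27.1% of EL and 23.2% of EIS UMIs.

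Cells needed 500 UMIs and 300 genes. Scrublet's automatic threshold marked 0 EL and 1 EIS cells, so the highest scores, 0.8% per 1000 barcodes, were removed instead (932 EL and 601 EIS cells). Classes were rebuilt from marker gates, with gland transcripts limited to 10% of UMIs except in gland secretory cells, which needed 40%. In EIS 578 cells lay between 8% and 12%. Counts were summed by class and library and scaled to CPM. Ratios had exact conditional 95% intervals, and a class at 0 was set against 3 UMIs. Comparisons between EL and EIS needed 100 cells in both libraries. A feature counted as measured with at least 20 UMIs over both sides of a comparison.

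Members open to naming were those among the 10 largest or smallest EL over EIS ratios, or the 5 largest class over rest ratios, at 20 CPM and 30 UMIs or more, among the 4 with most UMIs of a role, or next to the 50 UMI limit. Not all of these are named: the choice among them, and of members outside the rule, was made after their values were seen, and results on 1 member are not reported here. The members and lists were chosen with earlier results of these data known, and the gate thresholds, the gland limit, the split of JPH4-CLDN10 cells and the IGFBP2-AQP8 gate were set after seeing the data. The ratio code was tested on simulated data. Alternatives covered scaling, filters, doublets, gates, thinning and free RNA. Software was Python 3.11.15, NumPy 2.4.6, pandas 2.3.3, SciPy 1.17.1, scanpy 1.11.5 and matplotlib 3.10.9.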

Additional observations from a re-analysis of the deposited data

Results flagged for a closer look

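SLC28A3, the concentrative nucleoside carrier, lay on opposite sides in the epithelial comparisons of EL with EIS. Its log2 ratio of EL over EIS was 5.54 in non-ciliated epithelium and -1.64 in ciliated cells, 7.19 apart on the CPM scale. Relative to the median feature of each comparison the values were 3.93 and -1.68. With 1 library per group the difference was not tested. The CYP26A1 cells, which held most of its EL transcripts, had no class of the same gate in EIS.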

How the results depend on the processing

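No paired analysis was possible because each group had 1 library. Of 266 recomputed counts, 229 stayed within 1.5 times the value reported and 37 moved. Unless a share of all features is given, the counts of members below have none beside them. The number of measured members can also change with the UMI minimum and with thinning. Such counts show how far a number moved and are not read as results on the carriers. Another 1778 recomputed values were ratios of single members and, in a small part, medians of the members against all features. Of these, 270 moved. A ratio counted as moved outside its counting interval, and a median or a ratio without an interval at a shift of 2-fold or more. No single-member ratio past 2-fold changed sign. The comparison of non-ciliated epithelium depended most on scaling. With TMM factors 31 members were higher in EL and 49 in EIS, and with features over 1% of UMIs left out of the total 35 and 44. Relative to the median feature they were 27 and 57, where 18.8% and 19.7% of all features were past 2-fold. TMM factors also gave 2 members higher in EL T or NK cells, and over the rest of EIS 19 in ciliated, 15 in T or NK, 20 in macrophage, 11 in endothelial and 34 in gland secretory cells. Relative to the median feature the counts over the rest were 56 in CYP26A1, 16 in endothelial and 38 in gland secretory cells, against 20.3%, 14.4% and 18.6% of all features. Without features over 1% they were 15 in EIS T or NK, 19 in macrophage, 16 in endothelial, 12 in stromal and 20 in gland secretory cells. With no UMI minimum 20 ciliated members were higher in EIS, and 47 T or NK members in EL and 13 in EIS. A minimum of 50 UMIs left 4 and 4 in ciliated cells and 0 and 1 in T or NK cells. With every cell thinned to equal depth the ciliated counts were 6 and 4, the T or NK counts 0 and 1, and the counts over the rest 23 in EL ciliated, 15 in EIS T or NK and 18 in EIS macrophage cells. Keeping doublets gave 5 T or NK members higher in EIS, a looser gate 7 ciliated members higher in EL, and removal of 10% free RNA 2 T or NK members higher in EL. The count above the rest was 44 to 63 in trophoblast-like cells and 29 to 46 in IGFBP2-AQP8 cells over all alternatives. The trophoblast-like class itself held 181 cells as reported and 84 with the stricter gate. It held 442 with the looser gate and 577 with a gland limit of 20%. The IGFBP2-AQP8 class, reported with 106 cells, held 82, 161 and 186 at these settings. Leaving out shared barcodes and a gland limit of 20% were added after seeing the data. Thinning to 1000 UMIs left out 35 of 92 EL and 79 of 271 EIS macrophages, and 55 of 246 EL and 13 of 370 EIS T or NK cells.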
